A study of Mus musculus with 42 samples.

Results

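The RBM-numbered genes encode proteins with RNA-binding motifs, and 37 of the 55401 genes in the deposited tables carry such a symbol. They were taken by name, as every symbol made of Rbm, a number and at most a letter and a further number, leaving out Rbm7 and Rbm8a. RNA from 7 mouse cancer lines was compared after 6 h with 10 µM RECTAS in 0.1% DMSO, or with 0.1% DMSO alone, with 3 libraries in each of the 14 groups. The lines were B16 (melanoma), CT26 (colorectal adenocarcinoma), EG7 (lymphoma), LLC (lung carcinoma), MC38 (colorectal carcinoma), Pan02 (pancreatic adenocarcinoma) and WEHI3 (leukemia). RECTAS is a small molecule known for changing splice site choice through the kinases that phosphorylate SR proteins. DMSO, the solvent, was present in all groups, and no untreated cells were analysed here. Nothing in the labels ties the 3 libraries of a group to separate dishes of cells, and the p-values speak only for the spread among libraries, part of which may be technical. Each line is a single transformed culture and stands for itself rather than for a tissue.

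An RNA-recognition motif is a small fold that binds a short stretch of single-stranded RNA, and RBM proteins use it for very different tasks. Some sit in the spliceosome or choose among splice sites, some recruit the enzymes that methylate adenosine in mRNA, and others build ribosomes in the nucleolus, feed nuclear RNA to decay or answer to cold. Several are known to control their own level through the splicing of their own transcripts, a layer that a value summed over a whole gene does not show.

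The files give TPM, the share of a gene among all transcripts after correction for its length, so levels can be set side by side between genes. The number of reads behind each library was not given in the files, so the counting error of each value is unknown. The number of genes at 1 TPM or more ran from 11001 to 12205, replicate libraries correlated at 0.99 to 0.995 on the log2 scale, and mitochondrial genes held 4.64% to 8.83% of the TPM. Of the markers at 1 TPM or more with DMSO, B16 held 8 of 8 melanocyte, EG7 9 of 10 T lymphoid and WEHI3 8 of 9 myelomonocytic ones. WEHI3 also held 4 of the T lymphoid markers, whose list summed to 2153 to 2264 TPM there against 1988 to 2014 TPM in EG7, with Cd3e, Cd3g, Cd4 and Trbc2 below 0.05 TPM in WEHI3. Of 9 epithelial markers, 6 reached 1 TPM in Pan02, 2 in LLC and 0 in CT26 and MC38, where Epcam and the keratins that define an epithelium were at or near 0 although both carry a carcinoma label. Within groups, 1 axis of gene expression took 14.5% of the spread between replicate libraries. On that axis 3 libraries stood beyond a score of 2, namely B16 RECTAS replicate 2, CT26 RECTAS replicate 1 and LLC DMSO replicate 2, and average values whose call changes without them are given both ways.

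Over the 6 libraries of a line, DMSO and RECTAS together, 26 of the 37 genes averaged at least 1 TPM in every line. Another 5 did so in some lines and 6 in none. At baseline, with DMSO alone, the family was led by Rbm3, a cold-inducible protein that promotes translation, at 413 TPM in MC38 to 1000.1 TPM in CT26. Next came Rbm39, a relative of U2AF2 that works at the 3′ splice site, at 129 TPM in CT26 to 197 TPM in LLC. Rbm17, which helps choose 3′ splice sites, followed at 101.9 TPM in WEHI3 to 214 TPM in EG7. Together these 3 genes held 45.9% to 63.4% of the summed TPM of the family in a DMSO library. That sum averaged from 1565 TPM in MC38 to 2301 TPM in EG7 with DMSO.

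Among the other spliceosome members, Rbm25, which works with the U1 snRNP at 5′ splice sites, ranged from 39.1 TPM in CT26 to 106 TPM in EG7, and Rbm42, a tri-snRNP-associated protein, from 50.04 TPM in B16 to 93.7 TPM in EG7. Rbm22, which lies at the catalytic centre of the spliceosome, ranged from 40.5 TPM in WEHI3 to 70.5 TPM in MC38. Rbm48, which acts in the minor spliceosome, was low, from 5.55 TPM in Pan02 to 12.9 TPM in B16. Rbm5, Rbm6 and Rbm10, related regulators of cassette exons, had similar ranges to one another. They ran from 33.9 TPM in B16 to 69.05 TPM in WEHI3, from 27.3 TPM in EG7 to 41.2 TPM in LLC and from 28.7 TPM in MC38 to 58.9 TPM in LLC. The near-identical splice regulators Rbm4 and Rbm4b ran from 27.3 TPM in LLC to 56.05 TPM in EG7 and from 9.71 TPM in LLC to 25.0 TPM in EG7.

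Among members of the methylation and coactivator group, Rbm14, a transcription coactivator found in paraspeckles, ran from 40.6 TPM in B16 to 59.8 TPM in EG7. Rbm15 and Rbm15b, which recruit the m6A methyltransferase, ran from 7.39 TPM in CT26 to 16.9 TPM in WEHI3 and from 21.1 TPM in WEHI3 to 39.0 TPM in CT26, and Rbm33, which binds m6A-marked RNA, from 15.5 TPM in Pan02 to 31.4 TPM in EG7. Rbm26 and Rbm27, which link nuclear RNA to decay by the exosome, were close to each other, from 15.1 TPM in CT26 to 29.0 TPM in EG7 and from 11.6 TPM in B16 to 20.2 TPM in EG7. The nucleolar factors Rbm19, Rbm28 and Rbm34 ran from 20.9 TPM in B16 to 43.3 TPM in MC38, from 42.6 TPM in CT26 to 111 TPM in B16 and from 17.7 TPM in B16 to 37.3 TPM in Pan02. The remaining members found in every line were Rbm12 (15.6 TPM in Pan02 to 25.5 TPM in B16), Rbm12b2 (5.00 TPM in EG7 to 10.5 TPM in B16), Rbm18 (15.4 TPM in WEHI3 to 29.8 TPM in LLC), Rbm45 (23.2 TPM in WEHI3 to 45.004 TPM in LLC) and Rbm38, described next.

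**Figure D1:**
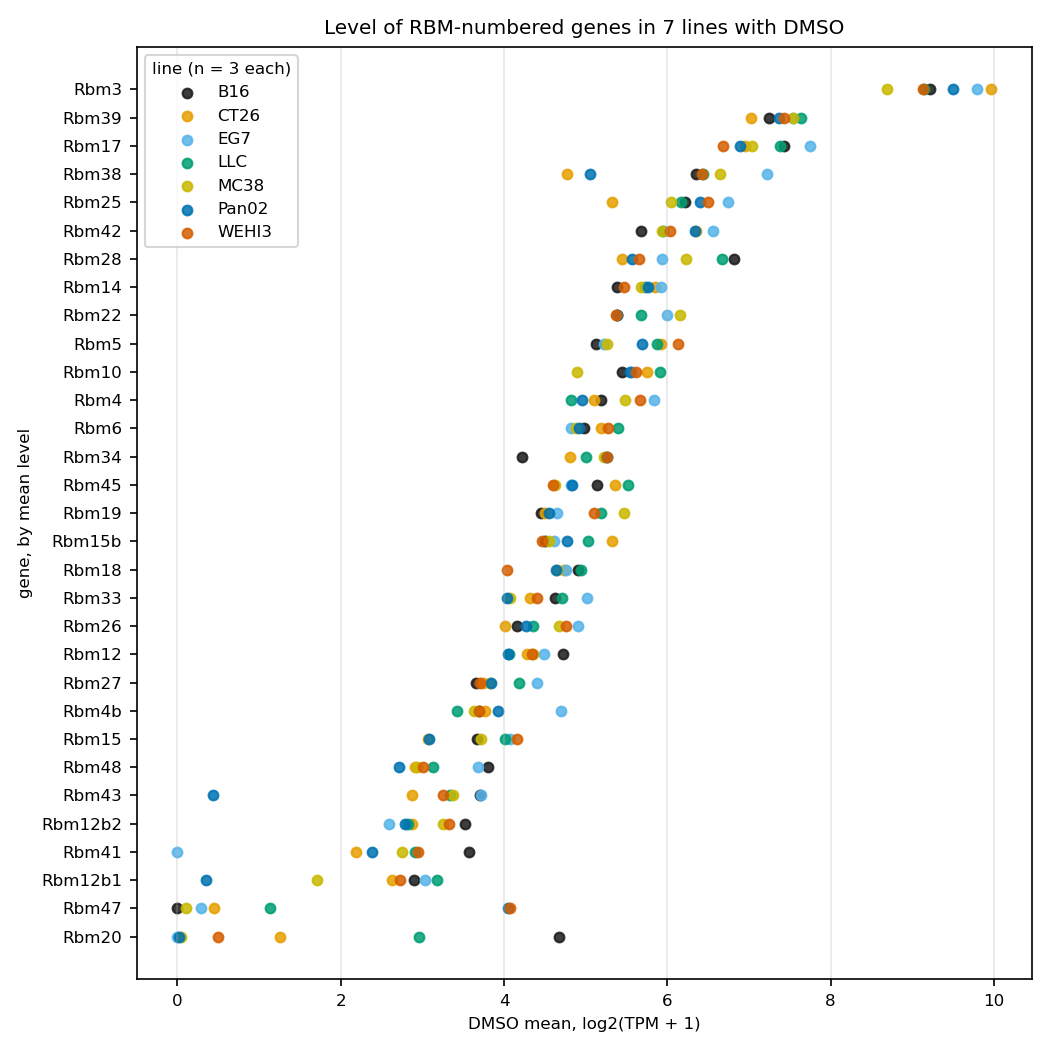
Each point is the mean of 3 DMSO libraries of 1 line, on the log2(TPM + 1) scale, for the 31 genes that averaged at least 1 TPM in any line, ordered by mean level. Rbm3 lies highest in every line, and the widest spreads belong to Rbm20, Rbm47, Rbm41, Rbm43 and Rbm12b1 at the foot.

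The lines differed in these levels. A test of equal DMSO levels (F-test in limma on log2(TPM + 1), called at a Benjamini-Hochberg adjusted p under 0.05 over all genes tested) called 26 of 26 members, against 98.8% of all 8775 genes tested. The gap between the highest and the lowest line was at least 1 on the log2 scale for 13 of 26 members, against 70.7% of all genes, and its median was 0.99 for members and 1.28 for all genes. EG7 was the highest line for 11 of the 31 genes detected somewhere, more than any other line, and the lowest for 4. The same count was not made over all genes, so it is no result about the family. In EG7 the median member stood 0.36 above the mean of the other 6 lines on the log2 scale, against 0.04 for all genes, and in LLC 0.26 above, against 0.03. In CT26 and Pan02 the median members stood at -0.18 and -0.18, against -0.09 and -0.03 for all genes. In B16 the median member stood at -0.11, against 0.10 for all genes. MC38 and WEHI3 had medians of -0.06 and -0.02, against 0.01 and -0.05.

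Rbm38, a target of p53 that controls mRNA stability, set the lines apart most among the 26. Its DMSO level was 26.3 ± 1.502 TPM in CT26, 32.2 ± 3.82 TPM in Pan02 and 148 ± 5.52 TPM in EG7 (SD, n = 3 each). Against the mean of the other lines, it was lower in CT26 by a log2 difference of -1.58 and in Pan02 by -1.26, and higher in EG7 by 1.27. All 3 passed the call, an adjusted p under 0.05 with a log2 difference of at least 1. The background of that call was 5.48% of genes lower in CT26, 3.34% lower in Pan02 and 5.2% higher in EG7. Only 2 other members met it in any line, Rbm25, lower in CT26 (log2 difference -1.02), and Rbm4b, higher in EG7 (1.01). Both lie close to the bound of 1 and fell under it after median-ratio scaling (-0.92 and 0.98). Rbm25 also fell under it after quantile normalization (-0.96) and on leaving out any 1 of the DMSO libraries CT26 replicate 3, LLC replicate 1 and MC38 replicate 2 (-0.94 to -0.99). Rbm4b did so without the DMSO library EG7 replicate 3, that of MC38 numbered 1 or that of Pan02 numbered 3 (0.995 to 0.997). No member met it in B16, LLC, MC38 or WEHI3, where 12.2%, 6.11%, 7.48% and 15.5% of genes did.

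The genes found in some lines only varied far more. Rbm20, which controls titin splicing in heart muscle, was highest in B16, at 26.3, 25.3 and 22.2 TPM with DMSO and 23.0, 21.5 and 23.8 TPM with RECTAS. LLC held 6.92, 6.18 and 7.13 TPM with DMSO and 6.56, 5.82 and 8.04 TPM with RECTAS, and CT26 1.25, 1.48 and 1.46 TPM with DMSO and 2.24, 1.74 and 2.11 TPM with RECTAS. All 6 EG7 libraries were listed at 0, and those of MC38, Pan02 and WEHI3 stayed under 1 TPM. Rbm47, a splice regulator and a cofactor of C-to-U mRNA editing, stood at 18.3, 14.5 and 13.9 TPM with DMSO and 15.8, 14.6 and 11.2 TPM with RECTAS in Pan02. In WEHI3 it stood at 16.9, 15.4 and 14.99 TPM with DMSO and 16.1, 15.02 and 13.3 TPM with RECTAS. LLC libraries lay near 1 TPM and those of the other 4 lines below it. High Rbm47 occurred in the line with the most epithelial markers and in a leukemia line whose epithelial markers summed to at most 0.07 TPM in a DMSO library.

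Rbm41, which binds the U12 and U6atac RNAs of the minor spliceosome, was listed at 0 in all 6 EG7 libraries. Every other line held it, from 3.56 TPM in CT26 to 10.9 TPM in B16 as DMSO means. Rbm43 and Rbm12b1 were lowest in Pan02. Rbm43 had 0.440, 0.270 and 0.340 TPM with DMSO and 0.210, 0.370 and 0.310 TPM with RECTAS in Pan02, while the lowest value in any library of the other lines was 5.19 TPM. Rbm12b1 had 0.400, 0.210 and 0.210 TPM with DMSO and 0.550, 0.110 and 0.390 TPM with RECTAS there, and up to 9.53 TPM in LLC. Its neighbour Rbm12b2, 44020 bp away on chromosome 4, was present in Pan02 at 5.83, 6.36 and 5.59 TPM with DMSO and 7.75, 6.54 and 6.48 TPM with RECTAS. The 2 genes are similar in sequence, so the split of reads between Rbm12b1 and Rbm12b2 is uncertain. These 5 genes fall below the filter in at least 1 line and were given no test between lines.

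**Figure D2:**
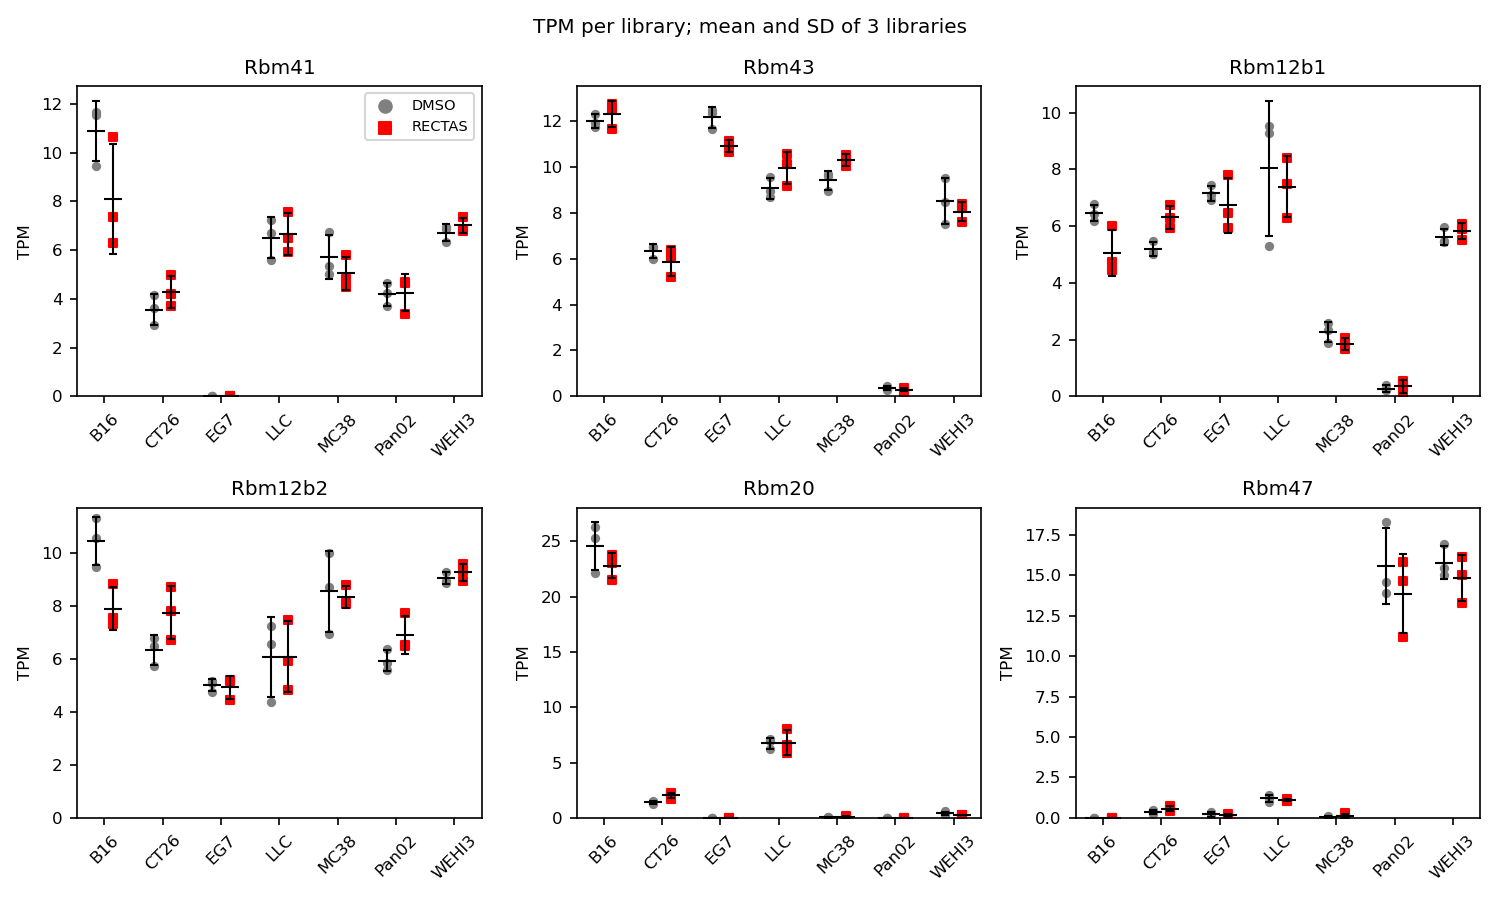
TPM in each library of 5 genes that passed 1 TPM in some lines only, and of Rbm12b2 beside its neighbour Rbm12b1, by line, with grey circles for DMSO, red squares for RECTAS and bars for the mean and SD of 3 libraries. EG7 is at 0 for Rbm41, Pan02 lies near 0 for Rbm43 and Rbm12b1, B16 leads Rbm20, and Pan02 and WEHI3 lead Rbm47.

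The start of Rbm41 is shown because this gene was listed at 0 throughout 1 line while each other line held several TPM. The window holds 250 bases before and 50 after the annotated start (RefSeq, GRCm38.p6, chrX:139998546-139998845, reverse strand), with CCAAT or its reverse complement in capitals. 
Rbm41: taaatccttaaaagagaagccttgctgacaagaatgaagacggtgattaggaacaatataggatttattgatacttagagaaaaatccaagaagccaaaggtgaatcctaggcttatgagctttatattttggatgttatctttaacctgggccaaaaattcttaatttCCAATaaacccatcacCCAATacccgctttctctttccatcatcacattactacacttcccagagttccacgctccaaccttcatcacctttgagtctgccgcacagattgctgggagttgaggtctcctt
It holds 2 CCAAT matches, and 11.7% of the 32851 windows hold as many or more. It holds 4 CpG dinucleotides, and 38.0% of windows hold as few or fewer. Member windows had a median of 20 CpG, against 7 for all windows.

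The other 6 members were at under 1 TPM in every line. Rbm11, a splice regulator of brain and testis, reached at most 0.990 TPM, in MC38. Rbm8a2 lay between 0.03 and 0.32 TPM. Rbm44, a germ cell protein, did not pass 0.1 TPM. Rbm24, a muscle splice regulator, Rbm46, a germ cell protein, and the Y-linked Rbm31y were listed at 0 in all 42 libraries.

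RECTAS moved single members by small amounts, and the share of members called lay near that of all genes. The question was whether RECTAS minus DMSO, averaged over the 7 lines, differed from 0 for each of the 26 members found in every line. Rbm34, Rbm3 and Rbm4b rose and Rbm14, Rbm10 and Rbm45 fell. That is 6 of 26 members called, or 23.1%, while 25.8% of all 8775 genes were called (9.86% higher and 15.9% lower). The median member difference was -0.01 on the log2(TPM + 1) scale and -0.0028 for all genes, and the median size of a difference was 0.03 for members and 0.04 for all genes. A share near that of all genes is no result about the family. After quantile normalization 4 members were called higher and 2 lower, and all genes split into 1227 higher and 1225 lower, in place of 865 and 1396.

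**Figure D3:**
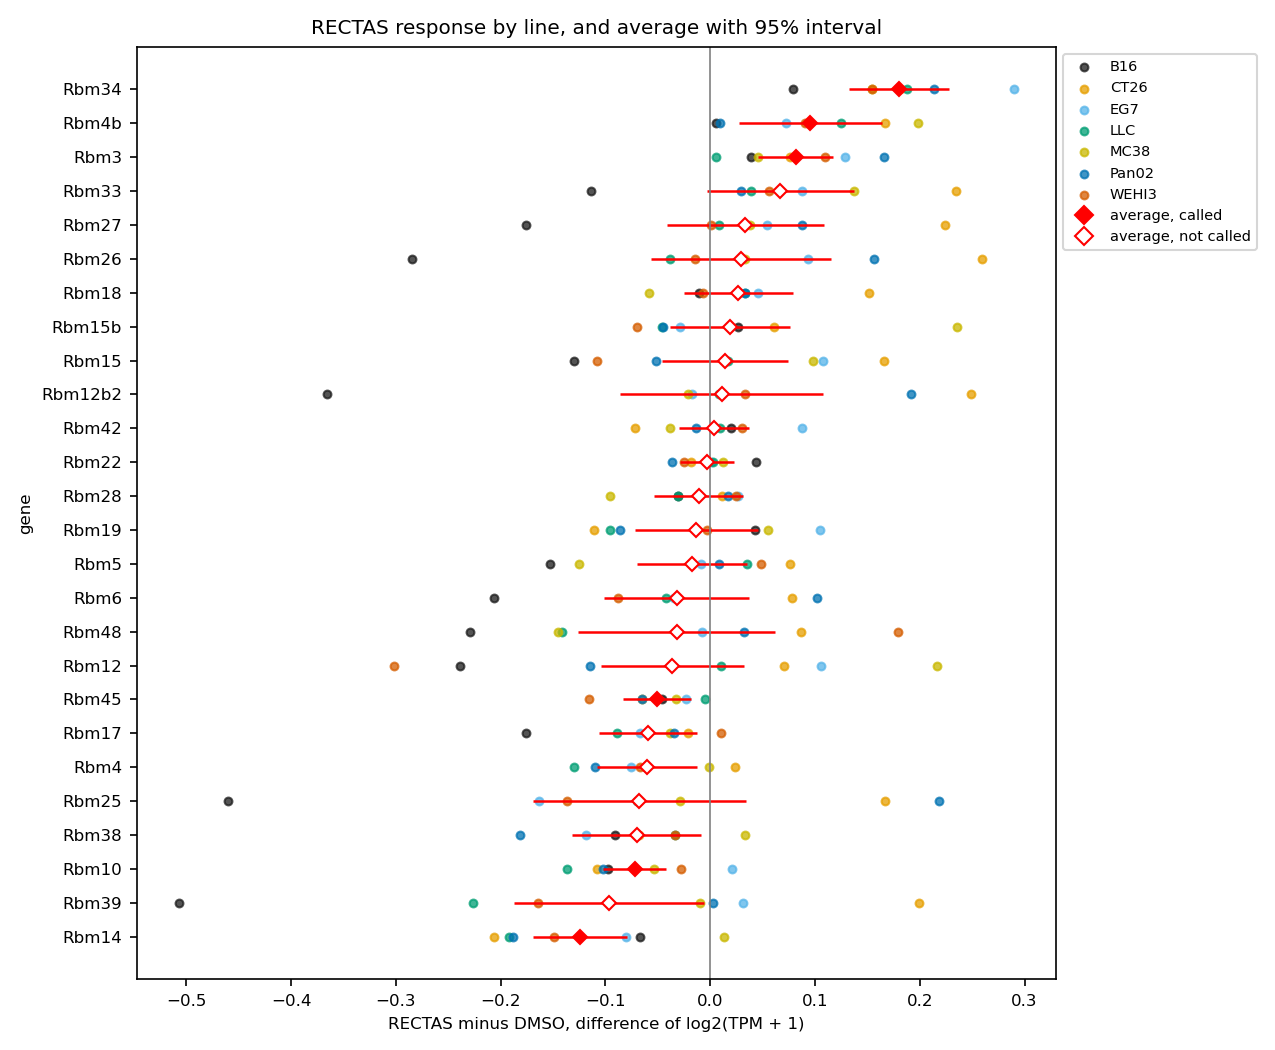
Difference of log2(TPM + 1), RECTAS minus DMSO, for 26 genes: small points are the 7 lines, diamonds the average with its 95% interval, filled red where called. Rbm34 and Rbm14 lie at the 2 ends of the averages, and B16 lies far to the left for Rbm39, Rbm25, Rbm12b2 and Rbm26.

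Rbm34, a nucleolar protein whose yeast counterpart acts in ribosome assembly, was the member with the clearest rise. EG7 held 37.1, 36.7 and 37.3 TPM with DMSO and 46.1, 43.9 and 46.4 TPM with RECTAS. In Pan02, the values were 36.6, 37.1 and 38.1 TPM with DMSO and 43.5, 44.0 and 42.7 TPM with RECTAS. For WEHI3 they were 37.7, 36.1 and 37.8 TPM with DMSO and 40.9, 42.2 and 41.6 TPM with RECTAS. In these 3 lines each RECTAS library lay above each DMSO library. CT26 held 27.5, 27.1 and 26.3 TPM with DMSO and 32.5, 29.0 and 30.7 TPM with RECTAS. In MC38, the values were 33.9, 38.0 and 37.1 TPM with DMSO and 39.4, 42.4 and 39.9 TPM with RECTAS. The groups were apart in these lines too. For LLC they were 32.7, 26.9 and 34.0 TPM with DMSO and 34.3, 33.2 and 39.2 TPM with RECTAS. B16 held 17.6, 16.7 and 18.7 TPM with DMSO and 20.1, 18.4 and 17.6 TPM with RECTAS. In LLC and B16 the groups overlapped, and B16 had the lowest level throughout. Each RECTAS library exceeded each DMSO library in 5 lines, where 15% (CT26), 14.9% (EG7), 11% (MC38), 10.4% (Pan02) and 7.59% (WEHI3) of all genes did so. The average difference was 0.18 (SE 0.0233, adjusted p = 2.53e-07), a ratio of 1.13, and the mean was higher in 7 of 7 lines. Replicate deviations of Rbm34 followed the axis described above (r = 0.80 over 42 libraries). Without the 3 libraries beyond a score of 2, the average was 0.16 (adjusted p = 2.02e-07).

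Rbm14 fell. CT26 held 57.4, 58.9 and 53.9 TPM with DMSO and 48.8, 50.6 and 47.7 TPM with RECTAS. In LLC, the values were 52.4, 54.4 and 48.6 TPM with DMSO and 45.3, 46.2 and 44.1 TPM with RECTAS. For Pan02 they were 56.5, 50.5 and 53.4 TPM with DMSO and 49.4, 48.5 and 42.6 TPM with RECTAS. In these 3 lines the RECTAS libraries all lay below the DMSO libraries. B16 held 41.5, 40.7 and 39.7 TPM with DMSO and 38.3, 38.7 and 39.2 TPM with RECTAS. B16 showed the same order with a smaller gap. In EG7, the values were 59.6, 56.8 and 62.9 TPM with DMSO and 56.7, 55.4 and 57.2 TPM with RECTAS. For WEHI3 they were 48.2, 42.2 and 39.5 TPM with DMSO and 38.4, 41.98 and 36.3 TPM with RECTAS. MC38 held 51.2, 49.6 and 50.1 TPM with DMSO and 51.4, 49.0 and 51.9 TPM with RECTAS. In these last 3 lines the groups overlapped, and MC38 had nearly equal means. The RECTAS libraries lay below in 4 lines, where 26.5% (B16), 12.5% (CT26), 9.27% (LLC) and 13.4% (Pan02) of all genes did so. On average the difference was -0.12 (SE 0.0219, adjusted p = 4.06e-05), lower in 6 of 7 lines. Deviations of Rbm14 between replicates did not follow the axis (r = -0.0020). Rbm14 shares exons with Gm21992, a read-through gene that joins it to Rbm4, so part of its reads could be assigned to either. Gm21992 was at 5.96 TPM with DMSO and 5.84 TPM with RECTAS (log2 difference -0.02, adjusted p = 0.911), and Rbm14 and Gm21992 summed to 56.8 and 52.4 TPM.

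The start regions of Rbm34 and Rbm14, the genes at the 2 ends of the response, differ in the short elements they hold. Capitals mark CGGAA, the core that ETS factors recognise, and CCAAT, or their reverse complements. Both windows are from RefSeq (GRCm38.p6), 250 bases before to 50 after the start, Rbm34 at chr8:126971000-126971299 and Rbm14 at chr19:4811585-4811884, both on the reverse strand. 
Rbm34: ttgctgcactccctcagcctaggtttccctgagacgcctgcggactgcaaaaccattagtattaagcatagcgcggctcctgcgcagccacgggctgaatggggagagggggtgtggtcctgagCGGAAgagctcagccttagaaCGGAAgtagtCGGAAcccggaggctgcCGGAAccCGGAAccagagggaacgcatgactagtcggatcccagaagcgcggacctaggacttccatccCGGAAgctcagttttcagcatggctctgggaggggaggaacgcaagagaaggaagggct
Rbm14: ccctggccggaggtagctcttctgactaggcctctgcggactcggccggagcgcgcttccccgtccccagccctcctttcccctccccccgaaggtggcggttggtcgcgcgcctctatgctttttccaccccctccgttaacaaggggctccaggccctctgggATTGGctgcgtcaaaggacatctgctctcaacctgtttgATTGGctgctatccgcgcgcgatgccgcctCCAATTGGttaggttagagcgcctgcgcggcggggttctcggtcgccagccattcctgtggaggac
The Rbm34 window holds 6 CGGAA matches, and 0.116% of the 32851 windows hold as many. The Rbm14 window holds 4 CCAAT matches, of which a pair overlap in CCAATTGG, and 1.06% of windows hold as many. Of all windows, 29.9% hold a CGGAA and 37.4% a CCAAT match. Among the other motifs searched on both strands, GGGCGG occurs in neither gene's window and in 35.7% of all windows. TATAAA occurs in neither as well, once in the Rbm41 window as its reverse complement, and in 13.6% of all windows. The motifs were chosen with the sequences in view, and a match of letters does not show that a factor binds. Other members hold these elements too, with 4 CGGAA each in the Rbm42 and Rbm45 windows and 5 and 4 CCAAT in the Rbm4 windows. Rbm42, Rbm45 and Rbm4 had average RECTAS differences of 0.0035, -0.05 and -0.06. A link between these elements and the response was not tested.

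Rbm10, an X-linked regulator that favours skipping of cassette exons, fell by less. LLC held 58.2, 58.9 and 59.7 TPM with DMSO and 55.4, 53.5 and 51.7 TPM with RECTAS. In B16, the values were 42.5, 43.5 and 41.6 TPM with DMSO and 39.9, 38.5 and 40.7 TPM with RECTAS. For Pan02 they were 47.8, 44.4 and 45.2 TPM with DMSO and 43.6, 42.5 and 41.6 TPM with RECTAS. In all 3 lines the RECTAS libraries lay below the DMSO libraries. MC38 held 28.4, 28.4 and 29.2 TPM with DMSO and 27.2, 27.5 and 28.1 TPM with RECTAS. In CT26, the values were 53.5, 53.4 and 51.8 TPM with DMSO and 51.9, 45.7 and 49.7 TPM with RECTAS. MC38 kept the same order at a lower level, and CT26 overlapped by 1 library. For WEHI3 they were 48.9, 45.6 and 49.2 TPM with DMSO and 47.0, 48.6 and 45.2 TPM with RECTAS. EG7 held 48.0, 45.8 and 45.6 TPM with DMSO and 48.4, 45.1 and 48.0 TPM with RECTAS. WEHI3 and EG7 overlapped, with a slightly higher RECTAS mean in EG7. MC38 is the fourth line without overlap, and 11.4% of all genes lay below there. The average difference was -0.07 (SE 0.0149, adjusted p = 3.28e-04), lower in 6 of 7 lines. Rbm10 overlaps Ndufb11 on the opposite strand, whose average difference was 0.0028 (adjusted p = 0.934).

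Rbm3 rose by a similar small amount. Pan02 held 671, 732 and 758 TPM with DMSO and 809, 787 and 827 TPM with RECTAS. In EG7, the values were 875, 917 and 875 TPM with DMSO and 926, 987 and 1005 TPM with RECTAS. For CT26 they were 1002, 1007 and 992 TPM with DMSO and 1030.3, 1069 and 1064 TPM with RECTAS. In these 3 lines the RECTAS libraries all lay above the DMSO libraries. WEHI3 held 542, 548 and 593 TPM with DMSO and 578, 601.03 and 636 TPM with RECTAS. In MC38, the values were 407, 400.6 and 431 TPM with DMSO and 418, 424 and 435 TPM with RECTAS. For B16 they were 634, 600.2 and 555 TPM with DMSO and 600.3, 621 and 614 TPM with RECTAS. Groups overlapped in these lines. LLC held 574, 552 and 571 TPM with DMSO and 553, 543 and 609.7 TPM with RECTAS. LLC overlapped as well, with the smallest difference of the 7 lines. The average difference was 0.08 (SE 0.0177, adjusted p = 6.05e-04), higher in 7 of 7 lines. Its deviations did not follow the replicate axis (r = 0.07). Cirbp, the other well-known cold-inducible RNA-binding gene, had an average difference of -0.03 and was not called.

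**Figure D4:**
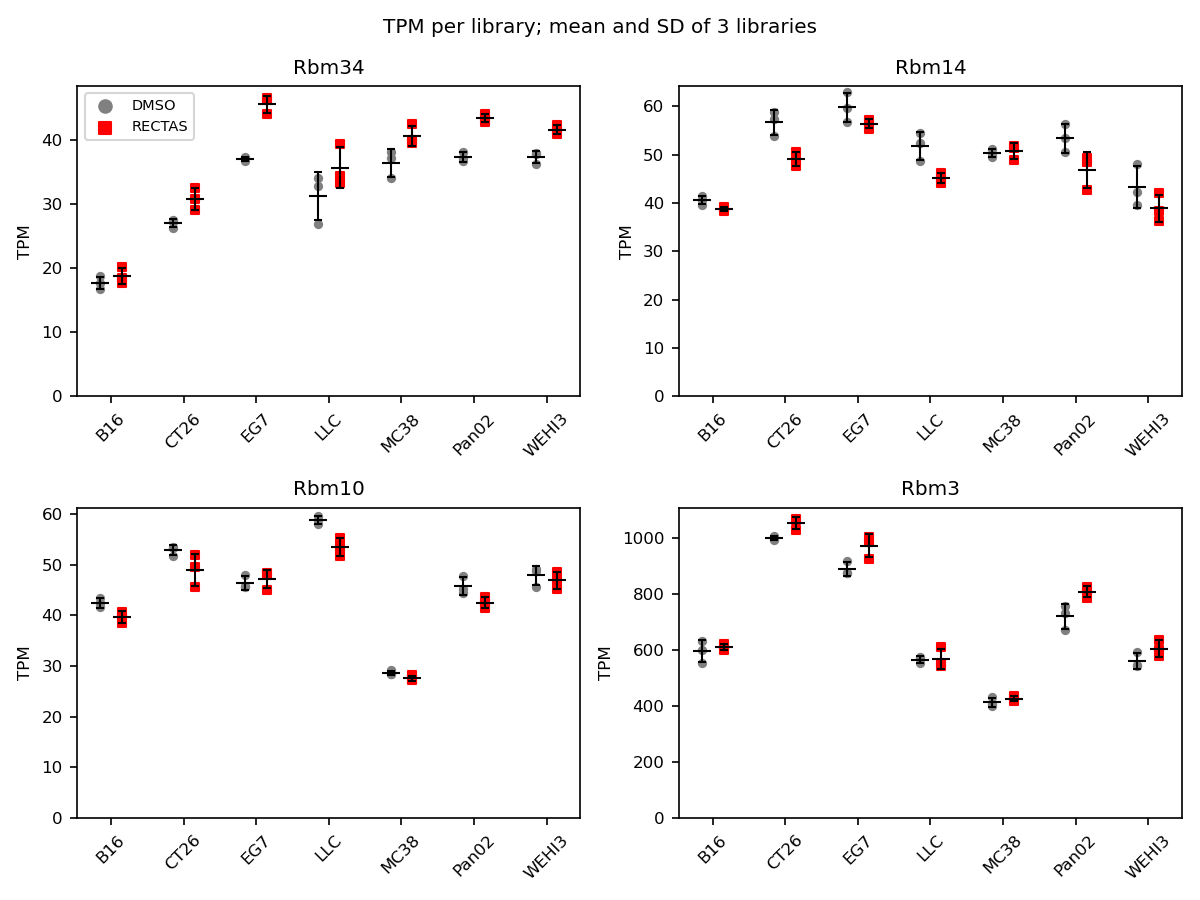
TPM in each library for the 4 members with the smallest adjusted p on average, by line, with grey circles for DMSO, red squares for RECTAS and bars for the mean and SD of 3 libraries. The RECTAS squares of Rbm34 lie above the DMSO circles in 5 lines, and those of Rbm14 and Rbm10 below them in 4 lines each.

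Rbm45, an RNA-binding protein found in inclusions in motor neuron disease, fell on average by 0.05 (SE 0.0160, adjusted p = 0.0174) on the log2 scale. Its mean was lower in 7 of 7 lines, from -0.01 in LLC to -0.12 in WEHI3. Rbm4b rose on average by 0.10 (SE 0.0335, adjusted p = 0.0330), higher in 7 of 7 lines, from 0.01 in B16 to 0.20 in MC38. No line separated its DMSO from its RECTAS libraries for Rbm4b, and its call was lost in 15 of 59 alternatives, among them leaving out the 3 libraries on the axis (adjusted p = 0.101). Its near-identical neighbour Rbm4 had a difference of -0.06 (adjusted p = 0.0545) in the opposite direction. Rbm4, Rbm4b and Gm21992 together summed to 59.2 TPM with DMSO and 58.5 TPM with RECTAS, so the division of reads among them bears on both values and was not tested.

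The other 20 members were not called on average. In the spliceosome group, the differences were -0.10 (adjusted p = 0.114) for Rbm39, -0.06 (adjusted p = 0.0547) for Rbm17, -0.07 (adjusted p = 0.362) for Rbm25, -0.03 for Rbm48, -0.0029 for Rbm22 and 0.0035 for Rbm42. The averages of Rbm39 and Rbm17 depend on a few libraries. Without the 3 libraries beyond a score of 2, both were called, Rbm39 at -0.13 (adjusted p = 0.00887) and Rbm17 at -0.07 (adjusted p = 0.0136). The average of Rbm39 was also called without LLC DMSO replicate 2 (-0.12, adjusted p = 0.0152), without B16 RECTAS replicate 1 (-0.11, adjusted p = 0.0453) and without the line CT26 (-0.15, adjusted p = 0.0220). Without the line B16 it was -0.03 (adjusted p = 0.703), and over 59 alternatives its adjusted p ran from 3.55e-04 to 0.703. Rbm22 had the narrowest interval of the family, reaching 0.02 at its upper end. Among the exon regulators, Rbm5 and Rbm6 stood at -0.02 and -0.03, and Rbm38 at -0.07 (adjusted p = 0.0905). The m6A members Rbm15, Rbm15b and Rbm33 stood at 0.01, 0.02 and 0.07. The decay adaptors Rbm26 and Rbm27 stood at 0.03 and 0.03. The nucleolar Rbm19 and Rbm28 had differences of -0.01 and -0.01. Rbm12, Rbm12b2 and Rbm18 stood at -0.04, 0.01 and 0.03.

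In single lines, few members passed the test of 6 libraries. B16 had 1 of 30 tested members called (background 4.1% of genes), EG7 1 of 28 (3.28%), Pan02 1 of 28 (1.68%) and WEHI3 2 of 30 (2.08%). CT26 (1.99%), LLC (0.194%) and MC38 (1.29%) had 0 by limma, with 9 of 30, 3 of 31 and 5 of 29 members at an unadjusted p under 0.05. Of all genes, 22% in CT26, 7.53% in LLC and 15.9% in MC38 reached that p. Apart from Rbm34, called in EG7 at 0.29 (SE 0.0328, adjusted p = 0.00612) and in Pan02 at 0.21 (SE 0.0390, adjusted p = 0.0454), the calls were for Rbm39 and Rbm12. In EG7, Rbm34 went from 37.0 ± 0.300 TPM to 45.5 ± 1.34 TPM, and its call there stood in each of 15 alternatives. In Pan02 it went from 37.3 ± 0.755 TPM to 43.4 ± 0.651 TPM (SD, n = 3), and that call was lost on leaving out any 1 of the 6 libraries (limma adjusted p 0.0954 to 0.186).

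Rbm39 in B16 had the largest single-line difference of the tested members. It held 143, 155 and 152 TPM with DMSO and 125, 96.1 and 96.5 TPM with RECTAS. The groups did not overlap, and the difference was -0.51 (SE 0.1015, adjusted p = 0.0460). The B16 groups were also apart on the replicate axis, with scores of 1.01 to 1.11 for DMSO and -2.19 to 0.06 for RECTAS, and Rbm39 followed that axis over all libraries (r = 0.92). A limma fit took as covariate a score computed anew from the 6 B16 libraries, not the scores above. It gave -0.46 (adjusted p = 0.00537). The smaller p is no added support, because the score takes up replicate spread of the same 6 libraries. Without RECTAS replicate 2, which lay beyond a score of 2, the B16 difference was -0.44 (adjusted p = 0.121), and the call was lost on leaving out any of 5 of the 6 libraries. The axis score and the treatment cannot be told apart in this line.

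WEHI3 had a smaller Rbm39 difference, with 175, 172 and 168 TPM with DMSO and 153, 157 and 148 TPM with RECTAS. The groups did not overlap, and 15.1% of all genes lay below in this way in WEHI3. The difference was -0.16 (SE 0.0287, adjusted p = 0.0404). WEHI3 scores on the replicate axis overlapped, from -0.35 to 0.36 with DMSO and from -0.43 to 0.42 with RECTAS. With a score computed anew from the 6 WEHI3 libraries as a covariate, the difference was -0.16 and no longer called (limma, adjusted p = 0.0719). CT26 lay the other way at 0.20, with 139, 133 and 115 TPM with DMSO and 171, 129 and 147 TPM with RECTAS, and its groups overlapped. Rbm12, a protein of several RNA-recognition motifs whose function is little known, fell in WEHI3, with 19.0, 18.7 and 20.1 TPM with DMSO and 14.9, 15.4 and 15.9 TPM with RECTAS. The difference was -0.30 (SE 0.0470, adjusted p = 0.0297), and the groups did not overlap. Rbm12 shares exons with Cpne1 and Gm28036 on the same strand, so part of its reads could be assigned to any of them. In WEHI3, Rbm12 and Gm28036 summed to 34.9 TPM with DMSO and 28.1 TPM with RECTAS. With Cpne1 added, the sums were 67.5 and 58.9 TPM. The division of reads among the genes was not tested. Both WEHI3 calls were lost on leaving out any 1 of the 6 libraries.

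A test of whether the 7 lines differed in their response called 0 of 26 members (limma F-test), against 3.07% of all genes, with 4 members at an unadjusted p under 0.05, as 21% of all genes were. Rbm12 came nearest (adjusted p = 0.0589), from -0.30 in WEHI3 to 0.22 in MC38, then Rbm39 (adjusted p = 0.101), from -0.51 in B16 to 0.20 in CT26. The result depends on LLC DMSO replicate 2: without it, Rbm12, Rbm25, Rbm26 and Rbm39 were called, while the count over all genes went from 269 to 876. In B16, 9 members had all RECTAS libraries below all DMSO libraries, of 30 tested, against the 26.5% of genes given above. In CT26 the same held for 2 of 30 members (12.5% of genes), with 6 above (15%). Pan02 had 3 of 28 below (13.4%) and 6 above (10.4%), and MC38 4 of 29 below (11.4%) and 3 above (11%). WEHI3 had 4 of 30 below (15.1%) and 1 above (7.59%). LLC had 3 of 31 below (9.27%), with 0 above. In EG7, 6 of 28 lay above (14.9%) and 2 below, where the share of all genes is not given. These counts were not tested.

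Replicate deviations of several members followed the axis, whose sign was set so that Rbm39 correlated positively with it. Of the 26 members, 10 had a correlation above 0.7 between their replicate deviations and the axis, against 18.2% of all genes. This count takes only the direction of Rbm39, and strong negative correlations over all genes were not counted. The strongest were Rbm26 (0.95), Rbm27 (0.93), Rbm39 (0.92), Rbm25 (0.90) and Rbm12b2 (0.89), and Rbm42 lay lowest at -0.42. The axis was computed from the same 42 libraries and includes these genes, so these values only describe. With the score as a covariate, 13 members were called on average in place of 6, among them Rbm17, Rbm25, Rbm39 and Rbm4 lower and Rbm26, Rbm27 and Rbm33 higher. Calls over all 8775 genes rose too, from 865 higher and 1396 lower to 1355 higher and 1655 lower, so the rise was not limited to the family. The score is made from the replicate spread of the same libraries, and the fit then sets that spread aside. Calls gained in this way follow in part from how the score was made and are no added support for a response.

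**Figure D5:**
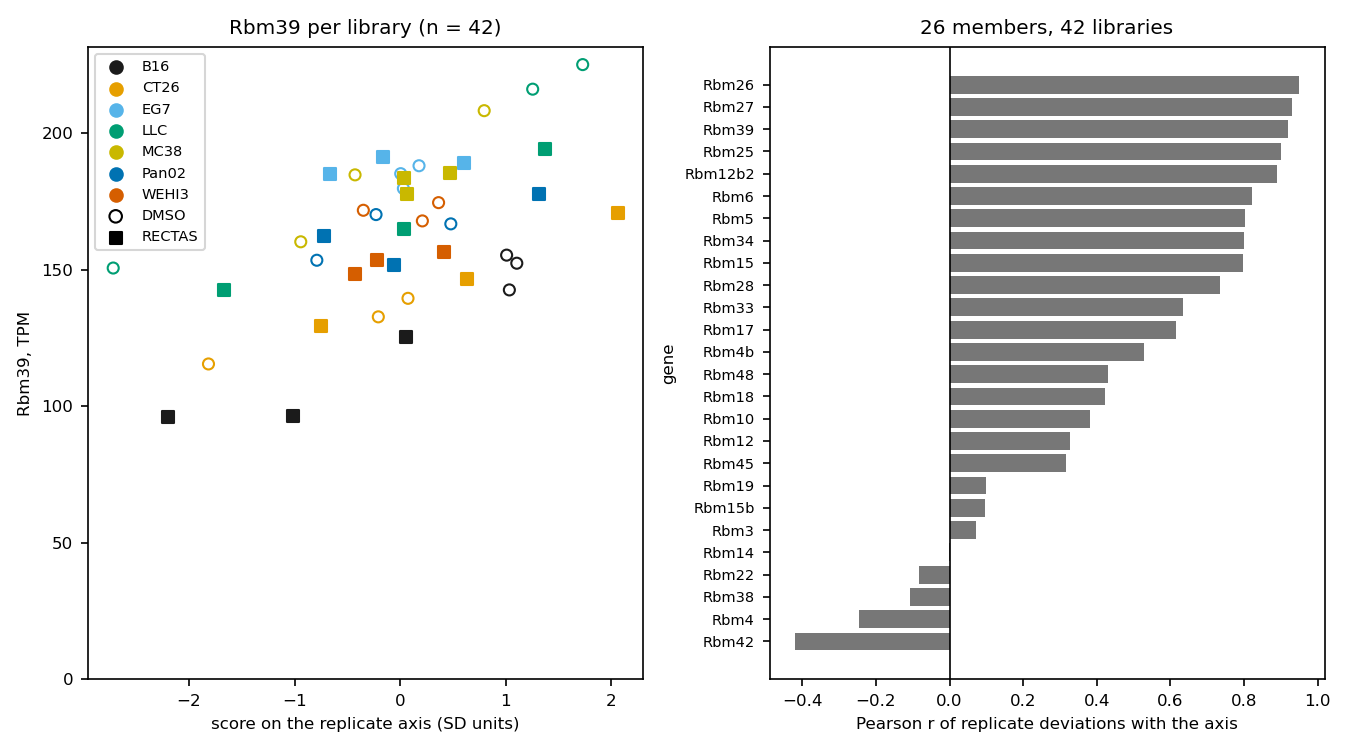
Left, Rbm39 TPM against the score of each of 42 libraries on the first axis of replicate spread, in SD units, open circles for DMSO and filled squares for RECTAS, coloured by line. Right, Pearson correlation of each member's replicate deviations with the axis, from 0.95 for Rbm26 to -0.42 for Rbm42. The 3 B16 RECTAS libraries lie left of and below the 3 B16 DMSO libraries.

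Partners of the family, given from lists, were called in both directions. Their counts stand beside the 25.8% of all genes called on average, 9.86% higher and 15.9% lower, and with so few genes in a list they are not a result about it. The RBM relatives outside the numbered family had 1 of 6 tested genes called, Rbmx, an X-linked splice regulator of the hnRNP family. It was at 51.0 TPM with DMSO and 40.0 TPM with RECTAS, a difference of -0.34 (SE 0.0211, adjusted p = 1.51e-14), lower in 7 of 7 lines and larger in size than that of any numbered member on average. The 7 lines differed in the Rbmx response (limma F-test, adjusted p = 0.0178), as they did for 3.07% of all genes. Rbm8a and Rbm7 had differences of -0.05 (adjusted p = 0.0668) and 0.03. Of 6 m6A methyltransferase genes, partners of RBM15, 1 was called, the catalytic subunit Mettl3, at -0.07 (adjusted p = 0.00566). Zc3h13 and Mettl14, of the same complex, stood at 0.07 (adjusted p = 0.115) and -0.02 and were not called. Of 10 partners at the U2 snRNP and 3′ splice site, 3 rose and 1 fell. Sf1, which binds the branch point, rose by 0.16 and U2af1, which reads the AG at the 3′ splice site, by 0.10, while its partner U2af2, which binds the polypyrimidine tract, had a difference of -0.12. U2surp rose by 0.26.

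Of 12 Prp19-related spliceosome genes, partners of RBM22, 3 fell and none rose, a share near that of all genes, led by Isy1 at -0.13 (adjusted p = 5.87e-09), then Bcas2 and Ppie at -0.03 and -0.05. Of 10 minor spliceosome genes, partners of RBM41 and RBM48, 3 rose and 1 fell. Rnpc3, a U12-type snRNP protein, rose by 0.26 and Zrsr2, which reads the 3′ splice site of minor introns, by 0.15. Scnm1 rose by 0.11, and Zmat5 stood at -0.07 (adjusted p = 0.0307). Of the 3 PAXT partners of RBM26 and RBM27, none was called (limma), and none had an unadjusted p under 0.05, which 34.8% of all genes had. Of 17 RNA-binding splice regulators from other families, 2 rose and 4 fell, among them Tia1 (-0.41, adjusted p = 4.07e-09) and Tial1 (-0.11, adjusted p = 2.57e-05). The median differences of these lists lay between -0.03 and 0.04, beside -0.0028 for all genes.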

How the data were processed

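Total RNA was extracted from the cells and made into libraries with a stranded mRNA kit, per the labels' protocols. The authors deposited 1 table of gene-level TPM per library. HISAT2 2.2.0, RSEM 1.3.0 and the build GRCm38 are named, without their roles, in the submitters' processing notes, and whether strand was used in counting is not given in the sources used here. No scaling between libraries was added. Differences were tested with limma 3.58.1 (R 4.3.3) on log2(TPM + 1), a scale that understates changes of low genes, with variances moderated along an intensity trend and two-sided p-values adjusted by Benjamini-Hochberg over all genes tested (threshold 0.05). A line was tested alone on its 6 libraries for genes averaging 1 TPM or more there. The average over lines and the F-tests (6 degrees of freedom) came from 1 fit of 14 group means to 42 libraries, for the 8775 genes averaging 1 TPM or more in every line. The replicate axis is the first principal axis of the deviations of these genes from their group means, and a library's score is its projection after centring on its line, divided by the SD of the scores. In a fit of a line alone, the axis covariate was computed in the same way from the 6 libraries and the tested genes of that line. Positions and overlaps came from GENCODE M21 (GRCm38), in which 55141 gene IDs (99.5%) matched, and start windows from RefSeq, which held 29 of the 37 genes. No 2 libraries were identical. The scripts were tested on simulated data. Members and lists were chosen with earlier results of these data known. All members are named, with full statistics for those called on average or in a line, values in every library for the 4 smallest adjusted p on average and the smallest in each line with a call, and the 3 genes of smallest p in each partner list with a call, except 1 gene that is not reported here. Rbm39 in CT26 and WEHI3, and the fourth gene called in the U2 and minor spliceosome lists, were named after their values were seen.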

Additional observations from a re-analysis of the deposited data

How the results depend on the processing

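On average over the lines, Rbm34, Rbm14, Rbm10 and Rbm3 kept their direction and call in all 59 alternatives. The direction was followed only for differences that were called and for the averages of Rbm39, Rbm17 and Rbm4, and none of these reversed. Averages of the other members, many of them near 0, were not followed in this way. The count of members called on average ran from 5 to 8 on leaving out a library. It was 13 with the replicate axis as a covariate, where calls over all genes rose as well. Leaving out together the 3 libraries beyond a score of 2, an alternative chosen after seeing the data, gave 7. Rbm45 lost its call after quantile normalization (-0.04) and without the line Pan02 or WEHI3. Rbm4b lost it with no filter on low values, without the line CT26, EG7, LLC or MC38, and without any 1 of B16 RECTAS replicate 3, CT26 RECTAS replicate 1, LLC RECTAS replicate 3, MC38 DMSO replicate 1, MC38 RECTAS replicate 1, Pan02 DMSO replicate 3, WEHI3 DMSO replicate 3 and WEHI3 RECTAS replicate 2 (differences of 0.08 to 0.10 in these alternatives). Rbm17 and Rbm4, not called on average, gained a call in 13 and 9 alternatives. On leaving out 1 library this held for Rbm17 without B16 DMSO 1, B16 RECTAS 1, CT26 RECTAS 1, EG7 RECTAS 1, LLC DMSO 2, LLC RECTAS 3, Pan02 DMSO 3, Pan02 RECTAS 3 or WEHI3 RECTAS 1, and for Rbm4 without B16 DMSO 3, CT26 RECTAS 3, EG7 DMSO 2, LLC RECTAS 2, MC38 DMSO 3 or WEHI3 RECTAS 1. In single lines the axis was computed from the libraries of that line alone. There and on average, it takes up replicate spread of the fitted libraries, so calls gained with it are no added support. The count of called members in B16 was 0 with no filter on low values and 0 with no intensity trend. It was 2 with the axis as a covariate (Rbm25 and Rbm39). On leaving out a library it ran from 0 to 7, the 7 without B16 RECTAS replicate 1. CT26 had 1 call after quantile normalization and 1 with the axis (Rbm14 in both), and LLC had 1 with the axis (Rbm39). Pan02 had 0 with no filter, no trend, median-ratio scaling or quantile normalization, and 0 on leaving out any library. WEHI3 had 0 with no filter, 1 with no trend and 1 with the axis (Rbm12 in both, Rbm39 lost), 1 after quantile normalization (Rbm34, with Rbm39 and Rbm12 lost), and 0 on leaving out any library. The EG7 count stayed at 1 and the MC38 count at 0 in each of 15 alternatives. The test of equal responses called 0 to 4 members on leaving out a library: 4 without LLC DMSO replicate 2, Rbm39 alone without B16 RECTAS replicate 1, and Rbm12 alone without any 1 of 6 other libraries (EG7 RECTAS 2, LLC DMSO 1 and 3, LLC RECTAS 2, MC38 DMSO 2, Pan02 RECTAS 2). The cause of these changes was not tested, beyond the fewer libraries of a fit that leaves one out. As the block, the replicate number gave 6 calls on average (2 higher and 4 lower, with Rbm39 called and Rbm4b not), 0 calls in B16, 0 in Pan02, 0 in WEHI3 and 1 in the test of equal responses (Rbm39). The numbers share no stated batch, and 5 of 21 pairs of same-numbered libraries had a correlation of deviations above 0.1, so the samples were not treated as paired. These correlations ran from -0.17 to 0.40, the highest for LLC replicate 2. On the axis its DMSO library scored -2.72 and its RECTAS library -1.67, so a link between same-numbered libraries in LLC cannot be told from these labels. Depth is unknown, which limits what can be said of members near 1 TPM.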

Other observations

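The annotation gives several members transcripts that gene-level TPM cannot tell apart. Of the 26 members found in every line, 10 have an annotated transcript of the nonsense-mediated decay type, or 38.5%, against 30.9% of tested genes. Rbm39 has 25 annotated transcripts, of which 8 are of that type, and Rbm5 has 24, of which 4 are. Of the 6 members called on average, Rbm34, Rbm14, Rbm10 and Rbm45 have none, Rbm3 has 2 and Rbm4b has 4. Some members lie next to each other in the genome. Rbm5 and Rbm6 lie 2562 bp apart on chromosome 9, with average RECTAS differences of -0.02 and -0.03 on the log2(TPM + 1) scale. Rbm12 and Rbm39, the members called in WEHI3, lie 35260 bp apart on chromosome 2. Rbm4 lies 6667 bp from Rbm14 and 17227 bp from Rbm4b on chromosome 19.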
